A study of Mus musculus with 2 samples.

Results

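The genes for the proteins of the cytosolic ribosome were measured by total RNA sequencing in the liver of mouse embryos at embryonic day 15.5. They were taken as the rows of both gene tables that map to a protein-coding gene with an Rps or Rpl symbol of the standard form, or to Rpsa, Rplp0, Rplp1 or Rplp2, in GENCODE on GRCm38. The rule gave 83 of 43346 genes: 76 core genes, 30 of the small and 46 of the large subunit, and 7 paralogs whose symbols end in l, l1 or al. Rps3a1 and Fau also encode ribosomal proteins, but their symbols lie outside the rule. The symbols Rps4l, Rps12l1 and Rpl6l fit the form and were left out because the annotation types them as pseudogenes. The study held 1 group with 2 libraries, both from healthy B6NCrl embryos of mixed sex. Replicate 1 pooled the livers of 78 embryos and replicate 2 those of 62 embryos. Each library started from 10 ng of RNA above 200 nt, with spike-in RNAs added. No treated, mutant or control animals were part of the design, so values are compared between genes and between the 2 libraries, and no p-value can be given.

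Each ribosome joins a small subunit, which holds the mRNA and decodes it, to a large subunit, which forms the peptide bonds. A ribosome carries about the same number of copies of nearly every ribosomal protein, and their mRNAs are translated together under the control of a pyrimidine tract at their 5′ end, the TOP motif. In the fetal liver, where red cells are made, ribosomal proteins have a particular place in medicine: in humans, loss of 1 copy of RPS19 or of several other ribosomal protein genes causes the red cell failure known as Diamond-Blackfan anemia. Ribosomal protein mRNAs have also been copied back into the genome many times, so that most of the genes have processed pseudogenes of nearly the same sequence.

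The libraries held 34039426 expected counts in replicate 1 and 44200838 in replicate 2 without spike-ins, of which the ribosomal protein genes took 645358 and 961152. Levels are given in TPM, an abundance corrected for transcript length and library total, rescaled here without spike-ins. Counting intervals below cover counting error only, since PCR reads without molecular identifiers are not independent molecules. Hepatocyte and red cell markers were abundant in both libraries: Afp reached 11399 and 10353 TPM, and the alpha globin gene Hba-a2 reached 162053 and 162773 TPM. Genes of the alpha and beta globin loci held 38.1% and 39.0% of TPM.

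The ribosomal protein genes summed to 3.34% of TPM in replicate 1 and 3.80% in replicate 2, 3.57% ± 0.321 (SD, n = 2). With the globins left out of the total, their share was 5.40% and 6.22%. In whole tissue, fewer cells of a type and less RNA per cell cannot be told apart, so these are shares of a mixture of liver and blood cells. The median core gene stood at 408 TPM in replicate 1 and 463 TPM in replicate 2. For comparison, protein-coding genes at a mean of 1 TPM or more had a median of 11.4 and 11.0 TPM. At 100 TPM or more in both libraries were 74 of the 83 genes, 71 of them core genes, beside 8.04% of the 11585 protein-coding genes at a mean of 1 TPM or more. All 76 core genes and 4 of the 7 paralogs reached 1 TPM in both libraries. The order of the core genes was nearly the same in both libraries, with a Spearman rho of 0.98 across the 76 genes, which share their library and their annotation.

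**Figure D1:**
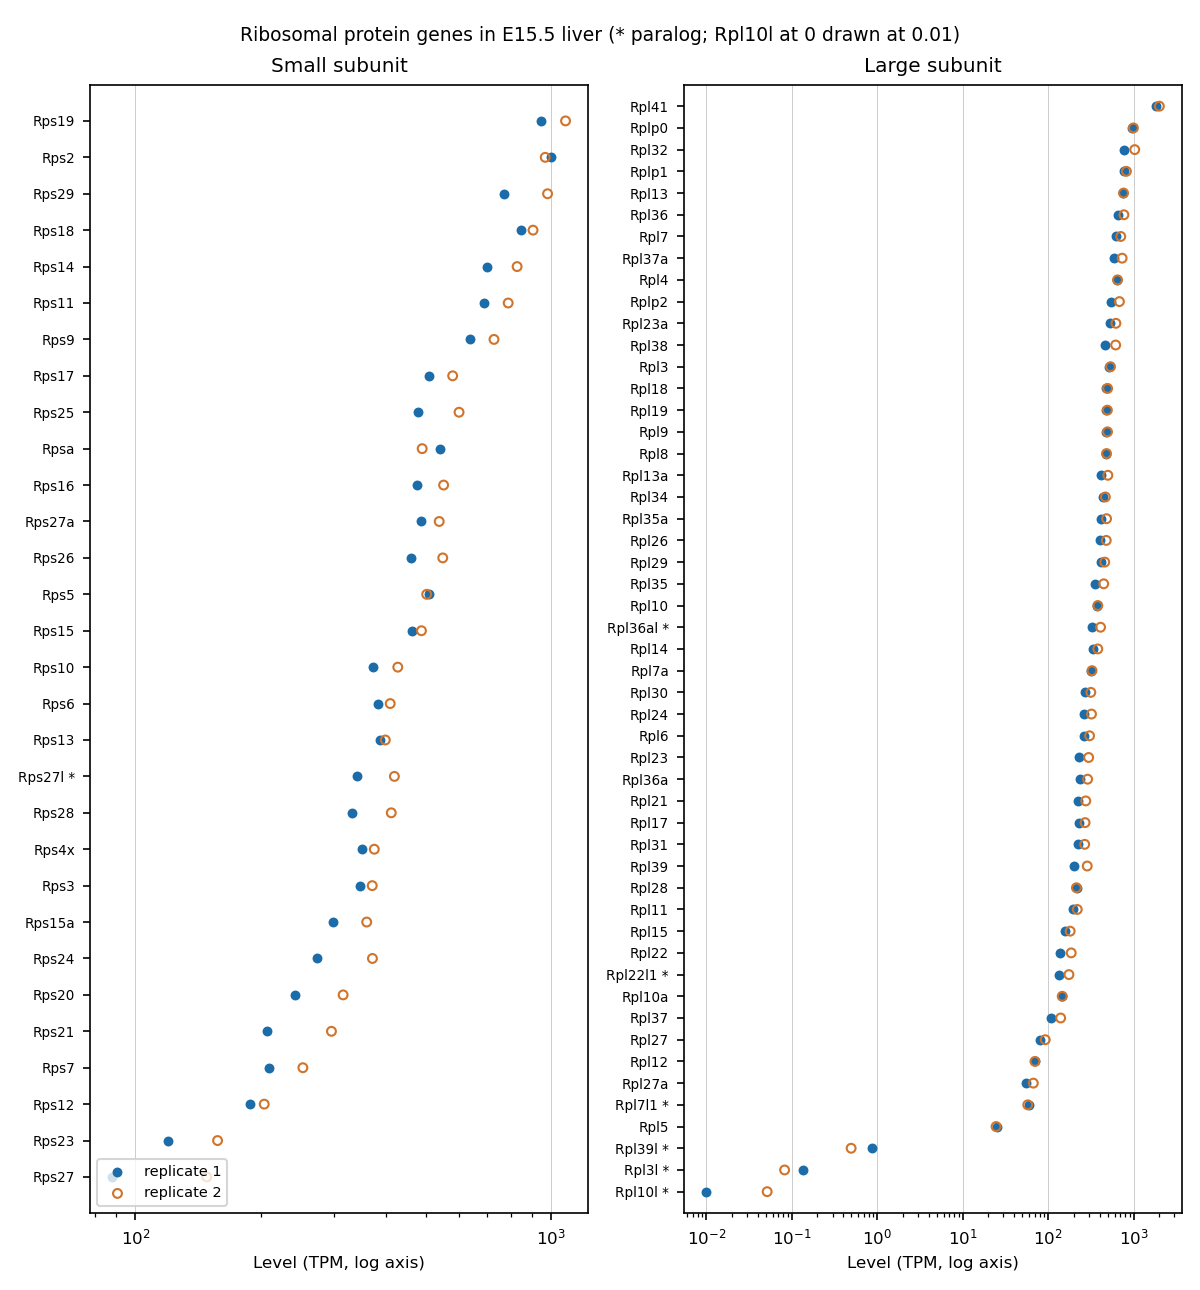
Level of 81 ribosomal protein genes in TPM on a log axis, with small subunit genes left and large subunit genes right, ordered by mean; filled points are replicate 1 and open points replicate 2. Most core genes lie between 100 and 1000 TPM, Rpl41 stands alone above 1500 TPM, and the paralogs Rpl39l, Rpl3l and Rpl10l lie below 1 TPM.

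Among the small subunit genes, Rps19 was the highest by mean, at 943 TPM in replicate 1 and 1083 TPM in replicate 2. Rps19 encodes a protein of the head of the small subunit and is the gene most often affected in human Diamond-Blackfan anemia. Rps2, whose protein lies near the mRNA entry, followed at 997 and 967 TPM. Rps29 reached 769 and 980 TPM, Rps18 845 and 904 TPM, and Rps14 700 and 828 TPM. The order of Rps19 and Rps2 differed between the libraries, and their values overlap. RPS14 is the gene tied to the anemia of the human 5q deletion syndrome. Rpsa, which is also known as the laminin receptor, stood at 540 and 489 TPM, and Rps27a, which is made as a fusion with ubiquitin, at 486 and 538 TPM. The lowest 3 small subunit genes were Rps27 at 88.0 and 148 TPM, Rps23 at 120 and 158 TPM, and Rps12 at 189 and 204 TPM. These are levels of the gene alone. With the TPM of matched copies added, as described below, Rps27 stood at 541 and 713 TPM, Rps23 at 758 and 962 TPM and Rps12 at 435 and 476 TPM.

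Rpl41, which encodes the smallest ribosomal protein, was the highest of all 83 genes at 1804 TPM in replicate 1 and 1998 TPM in replicate 2, and ranked 24 among protein-coding genes by mean TPM. Rplp0 at 951 and 994 TPM and Rplp1 at 775 and 823 TPM were also among the 5 highest large subunit genes, with Rpl32 at 773 and 1030 TPM and Rpl13 at 754 and 762 TPM. Rplp0, Rplp1 and Rplp2 form the P stalk, the arm of the large subunit that recruits the elongation factors. Rplp2 stood at 543 and 681 TPM. Rpl12, whose protein sits at the base of the stalk, stood at 70.0 TPM in both libraries for the gene alone and at 294 and 308 TPM with its copies. Taken alone, it was 1 of the 3 lowest core genes of the large subunit. The others were Rpl27a at 54.8 and 67.1 TPM and Rpl5 at 25.1 and 24.6 TPM.

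Rpl5 and Rpl11 bind 5S ribosomal RNA before it joins the large subunit, and outside the ribosome they bind the p53 regulator Mdm2. Taken alone, Rpl5 at 25.1 and 24.6 TPM lay below Rpl11 at 196 and 219 TPM. With copies added the order turned, with Rpl5 at 389 and 405 TPM and Rpl11 at 327 and 384 TPM. The 5 genes of proteins around the exit of the peptide tunnel (Rpl19, Rpl23a, Rpl26, Rpl31 and Rpl35) lay between 222 TPM for Rpl31 and 620 TPM for Rpl23a. Of 20 ribosomal protein genes whose human counterparts have been tied to Diamond-Blackfan anemia, 17 reached 100 TPM in both libraries, beside 71 of all 76 core genes. The median of the 20 was 343 TPM in replicate 1 and 420 TPM in replicate 2, beside 408 and 463 TPM for all core genes. The exceptions, Rpl5, Rpl27 and Rps27, are genes with highly similar copies, and each was above 100 TPM in both libraries with its copies added. With copies, Rpl27 stood at 577 and 684 TPM. The median of the small subunit core genes over that of the large subunit core genes was 1.19 in replicate 1 and 1.08 in replicate 2, 1.14 ± 0.0798 (SD, n = 2). With copies added it was 1.08 in replicate 1 and 1.16 in replicate 2, so the order of the libraries turned. The 4 core genes on the X chromosome (Rpl10, Rps4x, Rpl36a and Rpl39) had a median of 293 and 332 TPM, and the 72 core genes on other chromosomes one of 416 and 480 TPM.

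Reads of a ribosomal protein mRNA can fall on its copies elsewhere in the genome. By sequence, 1188 pseudogenes, taken by type or a -ps symbol, were matched to 1 of the genes, a median of 10 per core gene. Of these, 656 held no counts in either library and 43 reached 10 TPM in both. The pseudogenes held 12.6% of the family's expected counts in replicate 1 and 13.5% in replicate 2, 13.0% ± 0.622 (SD, n = 2). They took 18.6% and 19.6% of its TPM. The 27 pseudogenes without a mismatch and with at least 90% of their length aligned took 9.42% and 10.1% of the family's counts. How the reads of a shared stretch were divided between a gene and its copies rests on the authors' estimate, so the level of a gene with such a copy is uncertain.

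The lowest core gene, Rpl5, shows how close a copy can be. The first 60 coding bases are shown here as an example of a stretch in which gene and pseudogene cannot be told apart, and capitals would mark differences (mouse GRCm38, GENCODE transcripts; Rpl5 spans chr5:107900502-107909005 on the plus strand and Gm15500 spans chr7:114705217-114706235 on the minus strand).
Rpl5: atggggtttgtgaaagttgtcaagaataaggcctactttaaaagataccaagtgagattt
Gm15500: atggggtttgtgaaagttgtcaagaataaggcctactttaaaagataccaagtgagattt
Over all 894 coding bases of Rpl5 the copy had 0 differences. Gm15500 stood at 364 and 381 TPM, against 25.1 and 24.6 TPM for Rpl5 itself. Pseudogenes held 91.1% and 91.7% of the family's counts, and with the TPM of its copies added Rpl5 reached 389 and 405 TPM.

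Of 76 core genes, 8 had over 50% of the family's counts on pseudogenes in both libraries, 19 had over 20%, and 45 had under 5%. Copies with a -ps symbol are in these shares even where typed as protein-coding. An example is Rpl10-ps3, with 3877 and 6393 counts against 8156 and 11196 on Rpl10. Other copies typed as protein-coding are not in these shares. Rps27, at 0.233% and 0.308%, had 428 and 972 counts, against 3821 and 6417 on its copy Rps27rt. Rpl35, at 0.288% and 0.275%, had 5008 and 8623 counts, against 4861 and 6803 on its copy Gm2000. After Rpl5, the highest pseudogene shares were those of Rpl27 at 79.1% and 79.9%, Rps23 at 72.6% and 71.7%, Rpl27a at 63.0% and 65.7%, and Rpl12 at 61.7% and 64.2%. Each of these 5 genes was among the 4 lowest of its subunit when taken alone. The gene's own count is part of the family's counts, so a low count by itself raises the pseudogene share. For Rps23, the pseudogene Rps23-ps1 stood at 636 and 801 TPM, against 120 and 158 TPM for the gene, without a difference over the 425 aligned bases. Of the 35 pseudogenes at a mean of 20 TPM or more, 20 had no mismatch to the gene over the aligned part, and 13 stood above it in mean TPM.

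**Figure D2:**
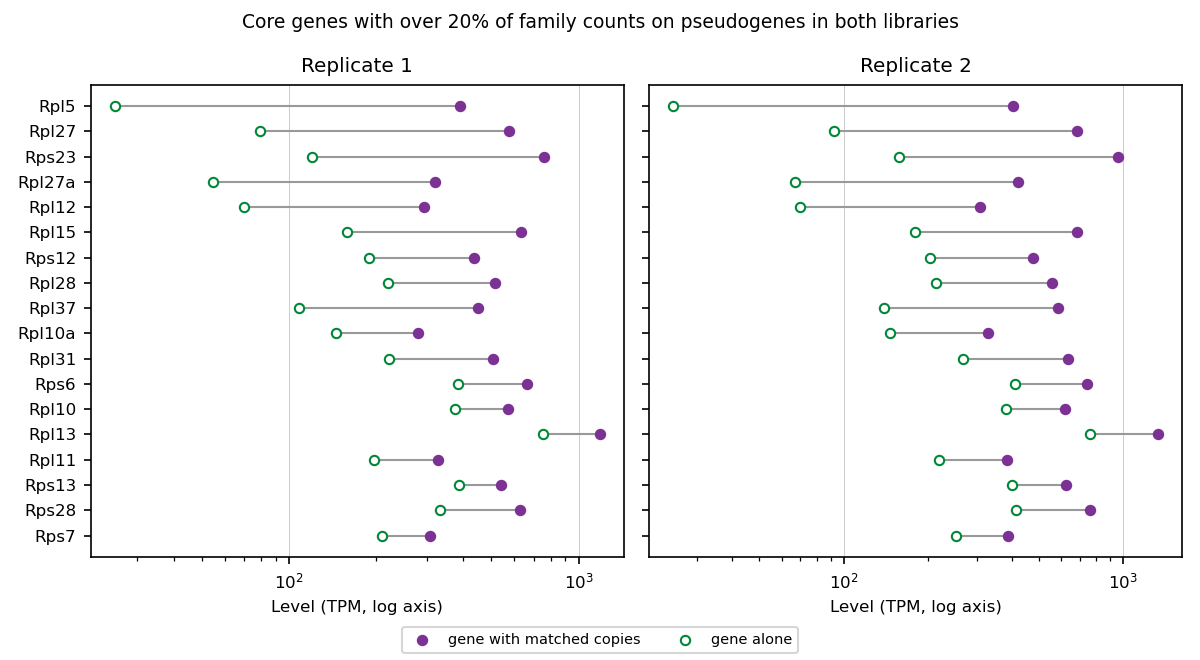
Level of 18 of the core genes with over 20% of family counts on pseudogenes, in TPM on a log axis, with replicate 1 left and replicate 2 right; filled points are the gene with its matched copies and open points the gene alone. The gap is widest for Rpl5, at 389 against 25.1 TPM in replicate 1, and the filled points lie closer together than the open ones.

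The spread among core genes was smaller once the TPM of copies was added. With copies added, the highest gene was 13.2-fold above the lowest in replicate 1 and 10.7-fold in replicate 2. Without them it was 71.8-fold and 81.3-fold. The SD of log2 TPM across core genes was 0.68 and 0.64 with copies, against 1.04 and 1.01 for the genes alone. Within 2-fold of the median were 64 and 72 of 76 genes with copies, against 58 and 57 alone. No core gene was under 100 TPM with copies. The lowest was then Rpl22 at 136 and 187 TPM, a gene with 4 matched pseudogenes. The TPM of a copy rests on its own length. For Rps29, a copy of 171 nt added 716 and 895 TPM from 1605 and 2704 counts. The gene alone had 769 and 980 TPM from 6976 and 11982 counts. With copies' counts put over the gene's length instead, the median core gene was 467 and 503 TPM, against 507 and 560 TPM here. The spread was not computed that way.

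The 7 paralogs together held 2.58% of ribosomal protein TPM in replicate 1 and 2.80% in replicate 2, 2.69% ± 0.153 (SD, n = 2). They fell into 3 ranges of level. Rpl36al, Rps27l and Rpl22l1 stood above 100 TPM, Rpl7l1 near 58 TPM, and Rpl39l, Rpl3l and Rpl10l under 1 TPM.

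Rpl36al, an autosomal copy of the X-linked Rpl36a, stood at 329 and 410 TPM, against 234 and 289 TPM for Rpl36a. The ratio of Rpl36al to Rpl36a was 1.40 in replicate 1, with a counting interval of 1.34 to 1.47 at 95%, and 1.42 in replicate 2. It was above 1 in both libraries, and its counting interval in replicate 2 was 1.37 to 1.47. The SD of the 2 ratios, 0.00943 (n = 2), is smaller than the width of either interval and does not measure their precision. Rpl22l1, a paralog that Rpl22 is known to repress in the mouse, stood at 133 and 175 TPM, against 136 and 186 TPM for Rpl22. Their ratio was 0.977 in replicate 1, with an interval of 0.917 to 1.04, and 0.941 in replicate 2, with an interval of 0.897 to 0.987. The coding sequences were 87.9% identical for Rpl36al and Rpl36a and 68.2% identical for Rpl22l1 and Rpl22.

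Rps27l, a p53 target, stood at 341 and 420 TPM, against 88.0 and 148 TPM for Rps27, a ratio of 3.88 and 2.83. With the copies of Rps27 added, the ratio turned to 0.631 and 0.589. The first 90 coding bases, printed to show that the paralog is far enough from the core gene for reads to be told apart, have 24 differences, in capitals (Rps27l at chr9:66946086-66949516, plus strand; Rps27 at chr3:90212522-90213651, minus strand; GRCm38).
Rps27l: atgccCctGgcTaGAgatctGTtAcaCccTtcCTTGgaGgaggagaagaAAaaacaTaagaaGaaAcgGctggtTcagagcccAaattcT
Rps27: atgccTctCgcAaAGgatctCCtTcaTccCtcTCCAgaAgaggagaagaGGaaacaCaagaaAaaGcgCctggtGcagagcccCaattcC
The whole coding sequences differed at 61 of 255 bases. In contrast, Rps27rt (chr9:114982366-114982739), a copy typed as protein-coding under a symbol outside the rule, had 0 differences from Rps27 over all 255 bases. It stood at 453 and 564 TPM, above Rps27 in both libraries. The deposited Rps27 transcript was 255 nt long, the length of its coding sequence alone. The authors' posterior SD of the Rps27 count was 17.4% and 9.60% of that count, while it was under 1% in both libraries for 58 of the 83 genes.

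Rpl7l1, a more distant relative of Rpl7 with 54.0% identity of the coding sequences, stood at 59.5 and 57.7 TPM, against 620 and 706 TPM for Rpl7. The ratio was 0.0959 and 0.0817. The other paralogs were close to the limit of detection. Rpl39l, known from mouse testis, had 14 and 12 expected counts, or 0.880 and 0.495 TPM, against 199 and 286 TPM for the X-linked Rpl39. Its share of Rpl39 was 0.444% and 0.173%. The coding sequences are given in full because within them reads of this low paralog differ from those of Rpl39 only at the bases in capitals, 23 of 156 (Rpl39l at chr16:10170226-10174911, plus strand; Rpl39 at chrX:37082520-37085402, minus strand; GRCm38).
Rpl39l: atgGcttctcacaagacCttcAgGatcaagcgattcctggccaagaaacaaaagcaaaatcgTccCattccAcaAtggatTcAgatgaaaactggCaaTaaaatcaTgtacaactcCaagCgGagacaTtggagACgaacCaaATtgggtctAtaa
Rpl39: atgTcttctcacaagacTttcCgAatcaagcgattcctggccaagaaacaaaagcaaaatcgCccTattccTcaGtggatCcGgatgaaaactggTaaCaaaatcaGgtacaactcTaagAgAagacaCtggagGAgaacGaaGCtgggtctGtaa
Rpl3l, the form of striated muscle, had 4 expected counts in each library, or 0.135 and 0.0826 TPM, against 519 and 536 TPM for Rpl3. Rpl10l, which replaces the X-linked Rpl10 in male germ cells, had 0 counts in replicate 1 and 2 in replicate 2. A count of 0 allows up to 3 counts of the 34039426 in replicate 1. Rpl10 itself stood at 373 and 381 TPM.

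**Figure D3:**
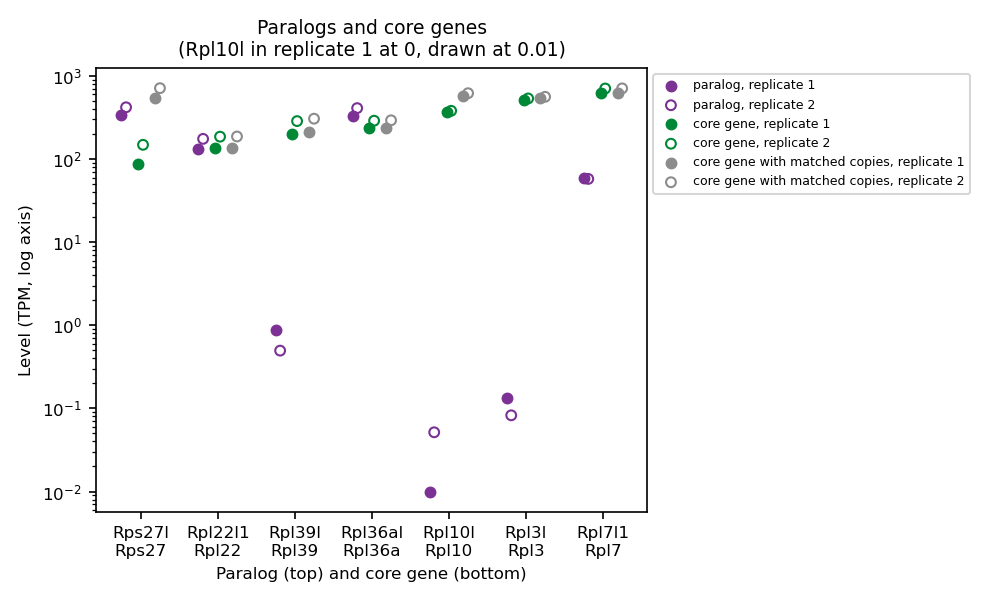
Level in TPM on a log axis of each paralog (purple), its core gene (green) and the core gene with matched copies (grey), filled for replicate 1 and open for replicate 2. Rps27l lies above Rps27 alone and below Rps27 with its copies, and Rpl39l, Rpl3l and Rpl10l lie at least 2 log10 units under their core genes.

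The TOP motif of ribosomal protein mRNAs begins at the first transcribed base, so the sequence around annotated starts was read (RefSeq, GRCm38.p6). Of the 83 genes, 63 had an entry. The windows of 30 bases shown here, 15 before the start and 15 from it, hold runs of C and T in capitals, and were picked by eye as examples of such runs, with the longest found in such a window, 21 bases, in Rpl7a.
Rps18 (chr17:33955651-33955680, minus strand): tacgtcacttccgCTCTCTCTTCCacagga
Rplp2 (chr7:141447636-141447665, plus strand): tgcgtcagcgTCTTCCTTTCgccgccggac
Rpl38 (chr11:114668565-114668594, plus strand): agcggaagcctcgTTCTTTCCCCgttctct
Rpl7a (chr2:26910792-26910821, plus strand): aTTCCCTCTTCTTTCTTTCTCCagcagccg
Rpl15 (chr14:18270972-18271001, minus strand): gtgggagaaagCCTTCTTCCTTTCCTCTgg
Within 30 bases of a start on either side, on the transcribed strand, a run of 8 or more C or T was found for 35 of the 63 genes, or 55.6%, beside 25.7% of the 26962 other genes of the table. The letters CTTTCC, which can lie within such a run, were found for 12 genes, or 19.0%, beside 3.37% of the others. A C at the annotated start followed by 4 pyrimidines was found for 13 genes, or 20.6%, beside 2.97%. These are counts of letters in windows around annotated starts, and the transcribed starts in these livers were not measured.

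Many ribosomal protein genes carry genes of small nucleolar RNAs in their introns, most of which guide the modification of ribosomal RNA. By coordinates on the same strand, 29 of the 83 genes (34.9%) held 56 genes annotated as small nucleolar or Cajal body RNAs, beside 1.63% of the 11505 other protein-coding genes at a mean of 1 TPM or more. Rpl4 held 5 and Rpl13a held 4. The RNA was selected above 200 nt, a length that most small nucleolar RNAs do not reach, so their own levels are not given.

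In the transcript tables, transcripts that the annotation types as something other than protein-coding held 6.87% of ribosomal protein TPM in replicate 1 and 6.83% in replicate 2, 6.85% ± 0.0264 (SD, n = 2). These shares are of the TPM on annotated transcripts. A further 19 transcripts that are not in the annotation used held 0.797% and 0.983% of all ribosomal protein TPM. For all other protein-coding genes without the globins the share was 9.52% in both libraries. By expected counts the shares lay closer, at 4.96% and 5.07% for ribosomal protein genes and 5.29% and 5.30% for the others. Retained intron transcripts took 3.47% and 3.25% of all ribosomal protein TPM, and processed transcripts 3.10% and 3.29%. Transcripts typed for nonsense-mediated decay, the breakdown of mRNAs with an early stop codon, took 0.243% and 0.218%. In 43 of the 83 genes the share typed as not protein-coding was under 1% in both libraries with under 1% on transcripts that are not in the annotation, and in 14 genes the share was over 10%. The same counts over other protein-coding genes are not given here. In Rpl13a, 65.8% of the TPM lay on transcripts that are not in the annotation, and their type is not known here.

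The 2 genes led by such a transcript were Rpl35 and Rps20. For Rpl35, Rpl35-203 (processed transcript, 541 nt) held 87.5% and 90.1% of the gene's TPM, and the protein-coding Rpl35-201 (946 nt) held 6.27% and 6.49%. For Rps20, Rps20-201 (retained intron, 582 nt) held 90.7% and 90.8%, and the protein-coding Rps20-203 (3706 nt) held 6.79% and 6.27%. In both genes the leading transcript was the shorter one. The copy Gm2000 held 4861 and 6803 counts, against 5008 and 8623 on Rpl35, so the Rpl35 shares rest on what was left on the gene.

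The next 3 genes were Rpl12, Rpl5 and Rps18. In Rpl12, the nonsense-mediated decay transcript Rpl12-201 held 41.4% and 42.7% of the gene's TPM and the protein-coding Rpl12-203 held 45.9% and 46.3%. In Rpl5, the retained intron transcript Rpl5-205 held 41.8% and 45.5%. In Rps18, a processed transcript of 536 nt held 38.0% and 35.3%. For Rpl12 and Rpl5, most family counts lay on pseudogenes, as given above, so these shares rest on what was left on the gene. The leading transcript was the same in both libraries for 80 of the 82 genes with counts in both, the exceptions being Rpl13a and Rpl3l. The largest disagreement among the genes over 10% was that of Rpl23, at 11.1% in replicate 1 and 38.5% in replicate 2.

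**Figure D4:**
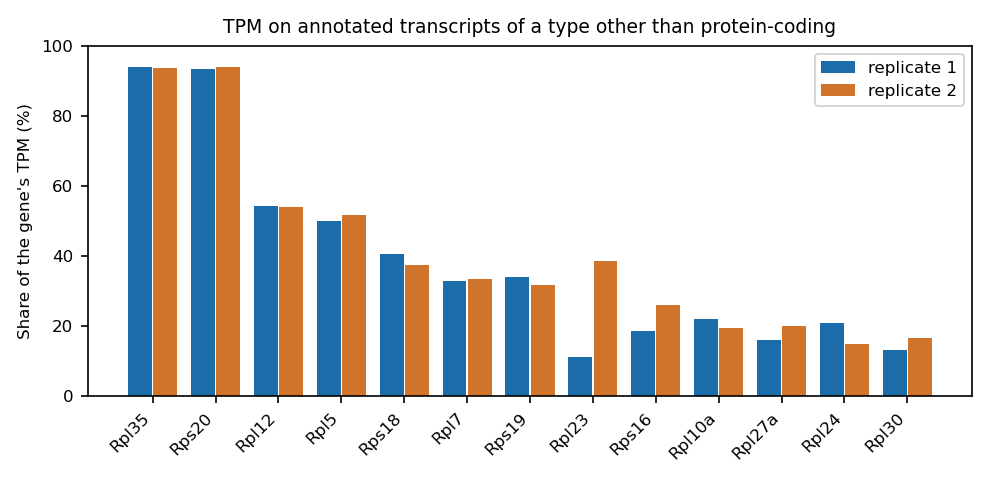
Share of each gene's TPM, in percent, on annotated transcripts of a type other than protein-coding, for 13 of the genes over 10% in both libraries; blue bars are replicate 1 and orange bars replicate 2. Rpl35 and Rps20 exceed 93% in both libraries, and Rpl23 differs most between them.

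Between the libraries, the ribosomal protein genes were a little lower in replicate 1 as a group. The log2 ratio of TPM + 1, replicate 1 over replicate 2, had a median of -0.20 over the 80 genes at 5 TPM or more in either library, with a range of -0.75 to 0.14. The median over all 8781 genes tested was 0.04. None of the 80 genes was past 2-fold, beside 0.672% of all genes tested. Below 0 were 74 of the 80, beside 39.2%, and above 0 were 6, beside 60.8%. The split of all genes depended on the scaling. With TMM scaling of expected counts 79 of the 80 were below 0, beside 54.7% of all genes, and the median of all genes was -0.017. With median-of-ratios scaling 79 were below 0, beside 55.4%, and with counts scaled to library totals 79, beside 49.5%. The counting interval of the count ratio lay below equality for 75 genes, beside 25.2%, and above it for Rpsa alone, beside 24.4%. The median was -0.20 for both subunits' core genes and -0.31 for the 4 paralogs that could be compared.

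Taken alone, Rps27 differed most, at 88.0 TPM in replicate 1 and 148 TPM in replicate 2, a log2 ratio of -0.75. Its count ratio, scaled to library totals, was 0.572 with a counting interval of 0.509 to 0.641. That interval leaves out how reads were divided between Rps27 and its copy Rps27rt. The posterior SD of the Rps27 count was 17.4% and 9.60% of that count. With copies added, Rps27 stood at 541 and 713 TPM. Rpl39 followed at -0.53, Rps21 at -0.52 and Rpl22 at -0.45. Rps21 encodes a small subunit protein and stood at 207 and 296 TPM.

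Gene length moved with the ratio. Among other protein-coding genes the median log2 ratio was -0.26 for effective lengths under 300 nt and 0.07 for those over 2500 nt. Ribosomal protein genes had a median effective length of 573 nt in the core set, beside 2262 nt for protein-coding genes at a mean of 1 TPM or more. In 5 of the 6 bins of length with more than 1 ribosomal protein gene, their median was below that of the other genes. For example, it was -0.26 for 20 ribosomal protein genes of 400 to 500 nt and -0.14 for 102 others. The exception was the bin of 300 to 400 nt, at -0.19 for 10 ribosomal protein genes and -0.22 for 60 others. With the trend with length removed, the median of the ribosomal protein genes was -0.088. No such value is given here for all genes tested. Markers of cell types also differed between the libraries, but not all the same way within a cell type. Of hepatocyte markers, Alb was at 5827 TPM in replicate 1 and 4558 TPM in replicate 2, and Apoa2 at 5989 and 6148 TPM. Of red cell markers, Alas2 was at 1454 and 1294 TPM and Hbb-bs at 78130 and 83367 TPM. The muscle gene Acta1 was at 96.1 and 147 TPM, and the pancreatic gene Cpa1 at 7.85 and 1.61 TPM. The part of cell composition in the difference was not tested.

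**Figure D5:**
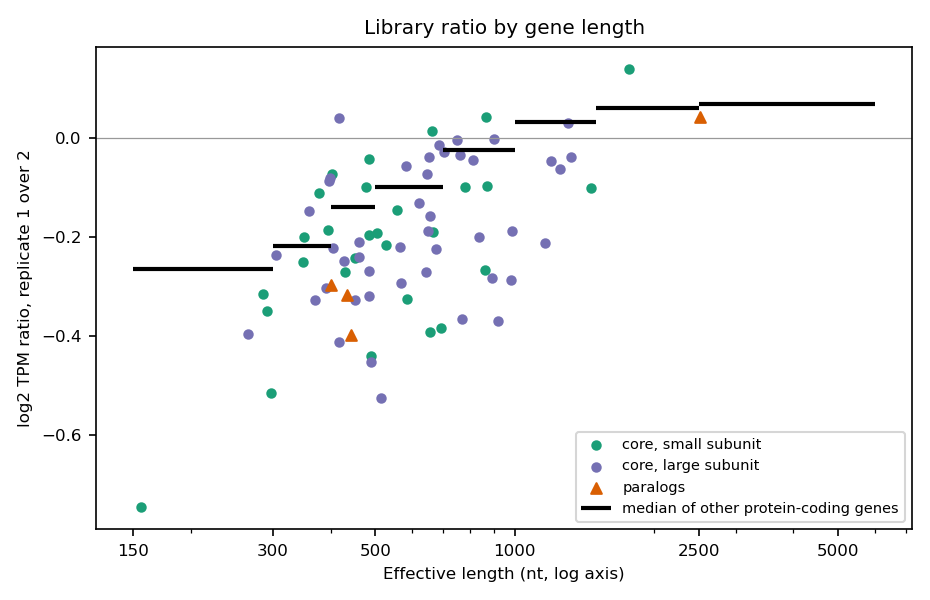
log2 ratio of TPM + 1, replicate 1 over replicate 2, against effective length in nt on a log axis for 78 of the ribosomal protein genes compared; green and violet points are core genes of the small and large subunit, orange triangles are paralogs, and black lines are medians of other protein-coding genes in 8 bins of length. Most points lie below 0, with Rps27 lowest at -0.75 and Rpsa highest at 0.14, and the black lines fall toward short lengths.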

How the data were processed

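Total RNA of 2 biological replicates of 1 group was measured. Per the labels and the companion descriptions, the authors' tables were made on mm10 with annotation M4. Which aligner and quantifier made them is not given in the sources used here. Expected counts, as deposited, estimate the reads of each gene or transcript and are not scaled. TPM and its posterior mean, as deposited by the authors, are corrected for effective length and library total, spike-ins included. TPM was rescaled without the 97 spike-in and 26248 numeric entries. Symbols, types and coordinates came from GENCODE M21 (GRCm38), which names 42462 of 43346 genes. In 50 of 354 transcripts of these genes the deposited length differs from that in M21 (for Rps27-201, 255 against 345 nt). At equal expected counts a shorter length gives a higher TPM, but how the length affected the counts themselves was not tested.

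The 83 genes and all lists were chosen with earlier results of these data known. Genes named were the paralogs with their core genes, the P stalk genes, Rpsa, Rps27a, the 5 highest and 3 lowest core genes per subunit, the extremes of library ratio, pseudogene share, transcript type and posterior mean, and Rpl5, Rpl11, Rps19 and Rps14; Rps27rt, Rpl23, Rps21, Rpl31 and Rpl4 and the start windows were picked after their values were seen. A few genes are counted in the totals but not reported here by name. Pseudogenes (by type or a -ps symbol) were matched to transcripts of the genes with blastn 2.17.0 (E-value 1e-10, 80% identity, 50% of the copy aligned). A gene with copies has their TPM added to its own. Libraries were compared as log2 of TPM + 1 over genes at 5 TPM or more in either library. Count ratios have exact 95% Clopper-Pearson intervals. The ratio was also run on simulated counts with sampling noise alone, which leave out the larger spread between these libraries given below. No p-value can be had from 1 library a side. The labels' biological replicates measure the spread between 2 pools. Their counts differed by more than sampling noise, with a chi-square of 33.2 per degree of freedom over 8739 genes. Alternatives were other scalings (edgeR 4.0.16, DESeq2 1.42.0), lengths, totals, copies, filters and pseudocounts, and each library alone. The work used R 4.3.3 and Python 3.11.15 with pandas 2.3.3, NumPy 2.4.6, matplotlib 3.10.9 and SciPy 1.17.1.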

Additional observations from a re-analysis of the deposited data

How the results depend on the processing

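The summed share of ribosomal protein genes, 3.57% of TPM, was 2.04% of expected counts, 5.81% without globins in the total and 4.18% with the counts of all matched copies added, and ranged over 3.34 to 3.80% with 1 library left out. The median core gene, at 435 TPM, was at 708 TPM without globins and 485 TPM with all copies. The paralogs' 2.69% became 2.42% of expected counts. The pseudogene share, 13.0% of family counts, was 6.37% with pseudogenes named -ps alone and 19.1% by TPM. The median log2 ratio of -0.20 was -0.25 on expected counts, -0.27 with TMM and -0.27 with median-of-ratios scaling, and -0.088 with the length trend removed. The share typed as not protein-coding, 6.85% of TPM, was 5.02% of counts. The cause was not tested. The counts of core genes at 100 TPM or more stayed between 71 and 76, and that of genes past 2-fold was 0 in the alternatives run. The length trend, the added copies of all kinds, the strict and -ps matches and the pseudogene share by TPM were chosen after the data were seen. Shares, levels and counts cannot change sign. The median log2 ratio of the ribosomal protein genes stayed below 0 in the alternatives run. That of all genes tested, 0.04, was -0.017 with TMM and -0.019 with median-of-ratios scaling. No paired analysis was possible because the study has 1 group.

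With 1 library left out, the median core gene ranged over 408 to 463 TPM, the subunit ratio over 1.08 to 1.19, the paralogs' share over 2.58 to 2.80%, the pseudogene share over 12.6 to 13.5% and the share typed as not protein-coding over 6.83 to 6.87%. Depth limited Rpl39l, Rpl3l and Rpl10l, which had at most 14 counts.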

Other observations

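Other genes of translation were lower than the ribosomal proteins in most cases. Of 10 translation elongation factors, 6 reached 100 TPM in both libraries, led by Eef1a1, which brings aminoacyl-tRNA to the ribosome, at 1876 TPM in replicate 1 and 1910 TPM in replicate 2. Eif5a, which helps the ribosome past difficult peptide bonds, reached 1165 and 1152 TPM, and Eef1a2, the form of muscle and neurons, stood at 0.0207 and 0.0206 TPM. Of 31 translation initiation factors, 14 reached 100 TPM in both libraries, and the median of all 31 was 80.3 and 78.4 TPM. Eif1, which takes part in the choice of the start codon, was the highest at 1160 and 1428 TPM.

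The 59 measured ribosome assembly factors had a median of 26.3 and 29.0 TPM, and 5 reached 100 TPM in both libraries, among them the nucleolar proteins Npm1 at 317 and 366 TPM and Ncl at 162 and 183 TPM. The 14 genes of RNA polymerase I and its factors, which transcribe ribosomal RNA, had a median of 12.3 and 13.1 TPM, and none reached 100 TPM in both. Of 18 measured genes listed for other TOP mRNAs, 14 reached 100 TPM in both libraries, among them Tpt1 at 438 and 509 TPM and Rack1 at 407 and 406 TPM. The median log2 ratio, replicate 1 over replicate 2, was 0.02 for elongation factors, -0.02 for initiation factors, -0.04 for assembly factors, -0.08 for RNA polymerase I and -0.15 for the other TOP mRNAs, and none of these genes was past 2-fold. These lists share genes: Eef1a1 is in the elongation and the TOP list.

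Of ribosomal protein genes outside the naming rule, Rps3a1 stood at 542 and 634 TPM and Fau at 301 and 342 TPM. Of the symbols typed as pseudogenes, Rps12l1 stood at 222 and 242 TPM, Rps4l at 66.3 and 64.3 TPM and Rpl6l at 0.394 and 1.21 TPM. Gm2000, a copy of Rpl35 typed as protein-coding, stood at 451 and 468 TPM, against 356 and 446 TPM for Rpl35.

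Among the 80 genes at a mean of 5 TPM or more, the posterior mean TPM departed most from TPM in Rps27, at 83.8 and 147 posterior mean TPM, a log2 ratio to TPM of -0.03. The low paralogs departed more: Rpl3l stood at 0.248 and 0.186 posterior mean TPM, and Rpl10l at 0.0311 and 0.0722.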
